A study of Rattus norvegicus with 3 samples.

Results

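The genes described here conjugate ubiquitin to proteins, choose which proteins receive it, or take it off again, and they were compared between the rat induced pluripotent stem (iPS) line M13 and adult rat cells. They were chosen by name alone: every gene on the array whose name in the array files began with Ube2, Fbxo, Fbxl or Fbxw, or with Cul or Usp followed by a digit. This gave 117 genes with 176 probes, out of 35499 genes and 41012 probes on the array. By class these were 25 E2 enzymes (Ube2), 5 cullins, 13 FBXL, 6 FBXW and 28 FBXO proteins, and 40 ubiquitin-specific proteases (USP). Each of 3 two-colour rat arrays set 1 iPS M13 sample in Cy3 against 1 and the same adult RNA in Cy5. The M13 cells were untreated and grew on feeder cells, irradiated embryonic fibroblasts of the mouse. The adult RNA, mix1, was a single mix of RNA from bone marrow cells and primary ear fibroblasts, both cultured from rat. The animals' strain, sex and age, the origin of the M13 line and the proportions of mix1 are not given in the sources used here.

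Ubiquitin is a small protein that is attached to other proteins through a chain of enzymes. An E1 enzyme activates it, an E2 enzyme carries it, and an E3 ligase brings the loaded E2 to the substrate. Cullins are scaffolds of the largest ligase family, and F-box proteins are the interchangeable substrate receptors of the Cul1-based ligases, grouped by leucine-rich repeats (FBXL), WD40 repeats (FBXW) or other domains (FBXO). Ubiquitin-specific proteases remove the modification. Some E2 enzymes and proteases serve related modifiers instead, namely NEDD8, which activates cullins, SUMO, and ISG15, which interferon induces. In stem cells these enzymes are known for timing the cell cycle, modifying histones and controlling the life span of transcription factors.

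Some names in the files are older than the proteins' present ones. Fbxl10 and Fbxl11 are now Kdm2b and Kdm2a, both F-box proteins with a histone demethylase domain, Fbxo18 is the DNA helicase Fbh1, and Usp52 is Pan2, which shortens the poly(A) tails of mRNAs. Fbxo23 is now Tspan17, a tetraspanin, and Usp6nl, which meets the rule by its spelling, is a regulator of Rab GTPases and no protease. All 117 genes were found in the RefSeq gene table, and present symbols are used below.

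A log2 ratio here is the background-corrected and loess-normalised iPS M13 signal over the mix1 signal of the same spot, so that positive values are higher in iPS M13. A gene was called higher or lower at a Benjamini-Hochberg adjusted p under 0.05 in limma together with a difference of at least 2-fold. The median spot signal ranged from 272 to 291 in the iPS M13 channel and from 228 to 254 in the mix1 channel. Any pair of arrays had a correlation of 0.997 to 0.998 over the ratios of all genes, a description only, since genes share their arrays. Of 19 pluripotency markers listed, 12 were found on the array by symbol and 8 were tested. Among the 3819 genes called higher were 7 of those 8, with mix1 above background on 0 arrays for Pou5f1 and Dppa3. Among the 5170 called lower were 18 of 18 fibroblast markers and 12 of 12 macrophage and marrow markers tested, the latter from 16 listed. The log2 of the summed fibroblast marker signal, led by the brightest genes, was 15.24 to 15.44 in iPS M13, against 21.69 to 21.86 in mix1. Of the 18, 3 were at background on every iPS M13 array, as were 4 of the 12 macrophage and marrow markers. These were tested only because mix1 was well above background, and Pou5f1, Dppa3 and Epcam only because iPS M13 was. The direction of these markers therefore adds no support. The part of mouse feeder RNA in the iPS M13 signals was not tested. Whether the 3 samples are separate cultures is not stated, so p-values cover only the spread between samples that may be technical repeats. With 3 arrays, precision is limited by their number. The single mix1 RNA contributes no spread of its own, and without a dye swap, dye and cell type cannot be told apart. In bulk RNA, fewer cells of a type and less RNA per cell also cannot be told apart.

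Of the 117 genes, 107 passed the filter on dim probes and were tested among 20341 genes. The remaining 10 had no probe that was well above background on all 3 arrays in 1 of the RNAs. They were Ube2b, an E2 of DNA damage tolerance, Fbxo32, the muscle atrophy ligase also called atrogin, the proteases Usp26 and Usp29, and Fbxl7, Fbxl16, Fbxo24, Fbxo36, Fbxo39 and Fbxo40. For Usp26, Usp29, Fbxl16, Fbxo24, Fbxo39 and Fbxo40 neither RNA was well above background on any array. Of the tested genes, 99 were measured in both RNAs on all arrays, while mix1 was dim on every array for Usp44, Usp49 and Usp43, and iPS M13 for Usp2 and Usp18.

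After loess, most of the 107 genes were within 2-fold between iPS M13 and mix1. Higher in iPS M13 were 18 genes (16.8%), against 18.8% of all genes tested, and lower were 15 (14.0%), against 25.4% of all genes, so that 33 were called, against 44.2% of all genes either way. At least 4-fold lower were 7 (6.54%), against 13.3% of all genes, and at least 4-fold higher were 0, against 4.59%, although for Usp44 and Usp49 only a lower bound was measured. That last count depends on the scaling and on replicate 2, without which Fbxo5 (2.02) passed. It was 9 genes with the scanner software's processed signals, 12 with median centring and 11 with no normalisation within arrays, against 12.5%, 11.5% and 10.7% of all genes. The fitted ratios, those of the 5 genes dim in 1 RNA included, ran from -3.77 to 1.99, with an interquartile range of -0.43 to 0.77 and a median of 0.27. Over all genes the interquartile range was -1.02 to 0.76, with a median of -0.02. The sign was shared by 3 of 3 arrays for each of the 33 called genes. The 2-fold minimum nearly ensured this, since the SD between arrays was at most 0.27. The median SD between arrays was 0.027 for these genes and 0.034 for all genes, and the adjusted p alone passed for 96.1% of all genes, so the minimum fold decided nearly all calls.

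**Figure D1:**
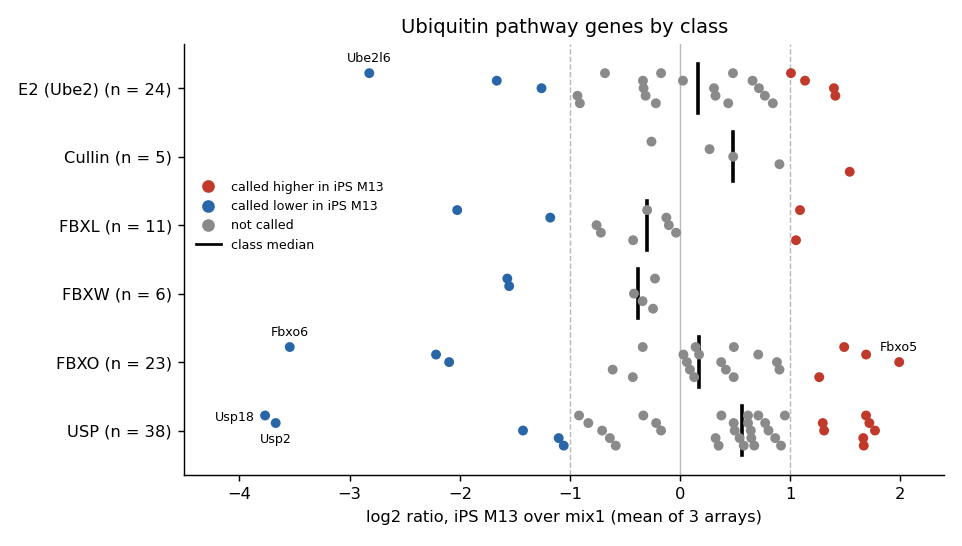
Each point is 1 of the 107 tested genes, placed on the x axis by its log2 ratio, iPS M13 over mix1, averaged over 3 arrays, and by its class on the y axis. Red and blue points were called higher and lower in iPS M13, dashed lines mark 2-fold, and black bars mark class medians, which run from -0.38 for FBXW to 0.56 for USP; the lower tail reaches -3.77 and the upper tail 1.99.

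Of the 24 E2 enzymes tested, 4 were higher (16.7%) and 3 were lower (12.5%) in iPS M13, against 18.8% and 25.4% of all genes. The class median was 0.17. The ISG15-carrying enzyme Ube2l6 stood furthest from 0. Its normalised log2 signals were 9.60, 9.67 and 9.62 in iPS M13, against 12.42, 12.47 and 12.46 in mix1, from a probe at chromosome 3, 67912640 to 67912699 (build rn3). All 3 iPS M13 signals lay below all 3 mix1 signals, and the log2 ratio was -2.82 ± 0.02 (SD, n = 3; limma adjusted p = 7.64e-07). Also lower were Ube2j1 (-1.66 ± 0.05), an E2 of the endoplasmic reticulum that serves the disposal of misfolded proteins, and Ube2m (-1.26 ± 0.02), which loads NEDD8 onto cullins.

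Ube2d1, which works with many ligases, had ratios of 1.43, 1.40 and 1.39. Ube2v2, an inactive partner that directs Ube2n to build chains used in signalling and repair, had ratios of 1.41, 1.39 and 1.39. The 3 arrays lay close together for both genes, and the adjusted p-values were 2.43e-06 for Ube2d1 and 1.91e-06 for Ube2v2. Ube2n itself averaged 0.84 ± 0.04 on its brightest probe and was not called, while its other probe, at 1.31, passed 2-fold. Its other partner Ube2v1 was at -0.33. Ube2q2 averaged 1.13 ± 0.06. Ube2t, the E2 of the Fanconi anaemia repair pathway, sat at the threshold with 0.99, 0.99 and 1.04, and without replicate 3 its mean of 0.99 was no longer called.

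The 17 other E2 enzymes were not called on their brightest probe. Among them, Ube2c and Ube2s are the pair that serves the anaphase-promoting complex in mitosis. Ube2c had ratios of 0.64, 0.68 and 0.65, and Ube2s had 0.04, 0.03 and 0.01 (adjusted p = 0.153). The broadly used Ube2d3 and Ube2l3 were at 0.44 and 0.31, and Ube2g1 at 0.72. Ube2d2b, which the files name Ube2d2, was at 0.32. The gene that carries the symbol Ube2d2 today lay outside the rule, at -0.09, and was not called. Ube2f, the other NEDD8 E2, was at -0.31, and Ube2a, the close relative of Ube2b, at -0.34, with another probe at -1.01 that passed 2-fold.

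The promoters of an E2 from each side of the comparison are shown as the 250 bases before the gene start, 5′ to 3′, from RefSeq on GRCr8. Ube2t lies at chr13:48954916-48955165 on the plus strand and Ube2l6 at chr3:90279455-90279704 on the plus strand. Capitals mark the letters CCAAT on either strand (ATTGG on the other), a box common in promoters of cell cycle genes, which start at positions -88 and -49 in Ube2t and at -111 in Ube2l6.
Ube2t: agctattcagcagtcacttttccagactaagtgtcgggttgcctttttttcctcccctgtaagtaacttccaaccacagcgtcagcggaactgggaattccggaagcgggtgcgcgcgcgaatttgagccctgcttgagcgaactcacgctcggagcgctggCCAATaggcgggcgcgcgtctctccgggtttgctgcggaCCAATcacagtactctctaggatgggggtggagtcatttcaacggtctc
Ube2l6: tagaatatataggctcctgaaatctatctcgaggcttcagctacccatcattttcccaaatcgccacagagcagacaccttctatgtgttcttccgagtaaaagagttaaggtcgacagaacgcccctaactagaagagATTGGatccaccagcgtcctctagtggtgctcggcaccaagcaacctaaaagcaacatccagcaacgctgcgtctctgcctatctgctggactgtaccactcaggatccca
Promoter entries were found for 98 of the 117 genes. CCAAT on either strand was present in 29 of them (29.6%) and in 34.3% of all 27457 promoters of this length. The letters TTTGAA, an element of late cell cycle promoters, were in 8 of the 98 and in 16.0% of all, on both strands. A match is a description of letters in this window and no measure of binding.

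Among the 5 cullins, Cul2 was higher and 0 were lower at the 2-fold threshold in limma, against 18.8% and 25.4% of all genes. At an unadjusted p under 0.05 there were 4 higher and 1 lower, but 96.1% of all genes passed even the adjusted p. Cul2, the scaffold of the ligase that holds the von Hippel-Lindau receptor, had normalised log2 signals of 11.88, 11.82 and 11.80 in iPS M13, against 10.38, 10.30 and 10.20 in mix1. The groups did not overlap, and the ratio was 1.54 ± 0.06 (SD, n = 3; adjusted p = 6.65e-06), with 1.45 from a second probe. The brightest probe lies on chromosome 17 from 62715370 to 62715806 in rn3. Cul4b, the scaffold of a ligase of DNA replication control, averaged 0.90 ± 0.04 on its brightest probe and was not called. Its 3 probes ran up to 1.76, and 2 of them passed the 2-fold threshold. Cul3 was at 0.48, Cul1, the scaffold that F-box proteins join, at 0.27 and Cul5 at -0.26. On the brightest probes, neighbours in this order were further apart than their SDs, but a second Cul3 probe was at 0.13, below Cul1.

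Of the F-box proteins with leucine-rich repeats, 11 were tested. Higher were 2 (18.2%) and lower 2 (18.2%), against 18.8% and 25.4% of all genes. The class median of -0.30 lay below that of all genes. Fbxl5, the iron-sensing receptor that removes iron regulatory proteins, was lower, with ratios of -2.06, -1.99 and -2.02 and a second probe at -1.72. Fbxl12 was lower at -1.18 ± 0.02. On the higher side were Kdm2b, with 1.08, 0.96 and 1.11, which binds CpG islands and brings Polycomb complexes to them, and Fbxl19 at 1.09 ± 0.01, another protein with a CpG-binding domain. Kdm2a, the closest relative of Kdm2b, had ratios of -0.29, -0.33 and -0.28 and was not called, and its other probes were at 0.17 and 0.12. Fbxl19 had a second probe at -0.23, so its call rests on 1 of its 2 probes.

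All 6 FBXW genes had ratios below 0, from -1.57 to -0.23, with a median of -0.38. Those called lower were Fbxw5 (-1.57, -1.54 and -1.60) and Fbxw4 (-1.55 on each array). Their arrays lay close together, while a second Fbxw5 probe was at -0.93. Called higher were 0 and lower 2 (33.3%), against 18.8% and 25.4% of all genes. At an unadjusted p under 0.05 there were 0 higher and 6 lower in limma, but 96.1% of all genes passed even the adjusted p. Fbxw11, a receptor for beta-catenin and the inhibitor of NF-kappa-B, was at -0.23, with 0.10 from another probe. Under median centring of the arrays the FBXW median was 0.25, but relative to the median of all genes it stayed below 0 in all 12 settings compared, by -0.43 to -0.33. The FBXL median likewise lay below that of all genes in these settings, by -0.31 to -0.19.

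Of the 23 FBXO genes tested, 4 were higher (17.4%) and 3 lower (13%), against 18.8% and 25.4% of all genes. This class held the highest ratio among genes measured in both RNAs. It also held 3 of the 7 genes that were at least 4-fold lower (13% of the class, against 13.3% of all genes). Fbxo5, also known as Emi1, inhibits the anaphase-promoting complex until mitosis. Its signals were 11.07, 11.01 and 11.08 in iPS M13, against 9.05, 9.08 and 9.06 in mix1, on a probe on chromosome 1 from 36497319 to 36497908 in rn3. All iPS M13 signals lay above all mix1 signals, and the ratio of 1.99 ± 0.05 (SD, n = 3; adjusted p = 3.11e-06) was just under 4-fold. Fbxo16 was higher at 1.69 ± 0.06, Tspan17 at 1.49 ± 0.02 with a second probe at 0.74, and Fbxo33 at 1.26 ± 0.05.

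The Fbxo5 promoter, at chr1:44607782-44608031 on the minus strand of GRCr8, is shown because it belongs to that gene. Capitals again mark CCAAT in either orientation, here at -92, -54 and -24.
Fbxo5: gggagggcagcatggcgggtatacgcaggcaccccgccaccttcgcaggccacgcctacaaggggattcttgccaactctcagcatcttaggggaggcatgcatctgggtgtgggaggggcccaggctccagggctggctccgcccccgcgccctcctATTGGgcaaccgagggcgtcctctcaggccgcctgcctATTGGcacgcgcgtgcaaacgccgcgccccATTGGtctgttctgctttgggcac
At least 3 such boxes were present in 5 of the 98 promoters and in 2.73% of all promoters. The other 4 were those of Pan2, Fbxl17, Ube2f and Usp5, of which Pan2 was higher and the rest were not called.

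Fbxo6, which binds sugar chains of misfolded glycoproteins, was the lowest F-box gene. Its signals were 10.47, 10.36 and 10.41 in iPS M13, against 14.01, 13.90 and 13.97 in mix1, and a second probe gave a ratio of -3.11. Its main probe, on chromosome 5 from 165233670 to 165233934 in rn3, gave a ratio of -3.54 ± 0.01 (SD, n = 3; adjusted p = 6.22e-07), with no overlap between the RNAs. Fbxo10, a receptor known to target the survival factor Bcl2, had ratios of -2.20, -2.20 and -2.25. Fbxo4 had -2.18, -2.04 and -2.08. Both were lower on all 3 arrays by more than the spread between them.

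Fbxo15, a gene that in mouse marks embryonic stem cells and served as a reporter for reprogramming, did not differ by the test. Its signals were 9.58, 9.49 and 9.69 in iPS M13, against 9.56, 9.47 and 9.64 in mix1. These ranges overlap, and the ratios of 0.03, 0.02 and 0.05 (adjusted p = 0.104) left no call on its single probe, on chromosome 18 from 81672988 to 81673047 in rn3. Fbxo2, the relative of Fbxo6 that is best known from brain, was at 0.09 ± 0.05. Fbxo21 and Fbxo9 reached 0.90 and 0.88 and were not called, although a second Fbxo21 probe was at 1.49.

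**Figure D2:**
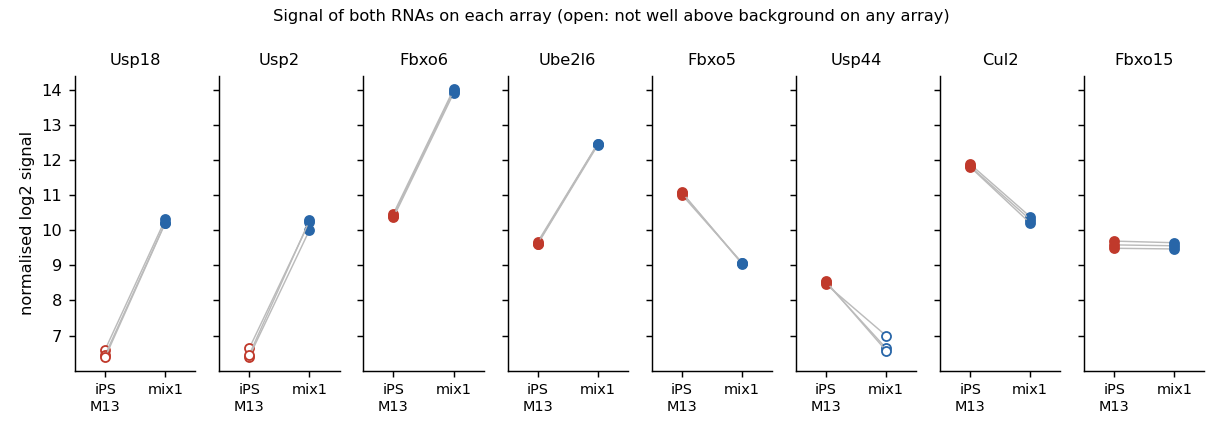
Normalised log2 signal (y axis) of iPS M13 (left, red) and mix1 (right, blue) on each of 3 arrays, with a line joining the RNAs of 1 array, for 8 genes. Open circles were not well above background on any array; Usp18, Usp2, Fbxo6 and Ube2l6 climb towards mix1, Fbxo5, Usp44 and Cul2 towards iPS M13, and Fbxo15 is level near 9.6.

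The ubiquitin-specific proteases formed the largest class, with 38 tested. Of these, 7 were higher (18.4%) and 5 lower (13.2%), against 18.8% and 25.4% of all genes. The class median of 0.56 lay above the cullin median of 0.48. The order of these medians depends on the settings. With median centring USP genes were at 1.14 and cullins at 1.27, with no normalisation at 1.08 and 1.21, and with a GC trend removed at 0.31 and 0.41. Usp18, which removes ISG15 from proteins and damps interferon signalling, had signals of 6.60, 6.45 and 6.38 in iPS M13, against 10.31, 10.22 and 10.21 in mix1. Usp2, a protease with a rhythmic daily expression in many tissues, had signals of 6.64, 6.41 and 6.46 in iPS M13, against 10.24, 10.00 and 10.28 in mix1. For both genes the iPS M13 signal was too close to background on every array, so only bounds can be given. Usp18 was at least 9.16-fold lower and Usp2 at least 8.71-fold lower in iPS M13. The limma test was run on ratios that include the dim signal (adjusted p = 1.20e-06 for Usp18 and 4.74e-06 for Usp2). The bounds themselves were not tested, and both genes passed the filter on dim probes through mix1 alone. A second Usp18 probe, with mix1 signals of 7.93, 7.82 and 7.95, did not pass 2-fold, but iPS M13 was too dim there on all 3 arrays as well, so it too gives only a bound.

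The Usp2 promoter at chr8:53310620-53310869 on the plus strand of GRCr8 is shown as that of a gene not well above background in iPS M13, with 1 CCAAT match in capitals at -148. Usp18, Usp44, Usp49 and Fbxo10 had no entry in the promoter table.
Usp2: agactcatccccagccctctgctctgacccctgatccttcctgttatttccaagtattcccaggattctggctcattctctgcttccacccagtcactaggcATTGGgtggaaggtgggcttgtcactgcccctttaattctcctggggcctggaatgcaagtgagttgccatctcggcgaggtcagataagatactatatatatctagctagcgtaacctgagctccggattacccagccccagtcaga

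Less pronounced were Usp20 (-1.43 ± 0.04), Usp9x (-1.10 ± 0.03), an X-linked protease that keeps many signalling proteins stable, and Usp13 (-1.06 ± 0.04). The 5 probes of Usp9x ran from -1.78 to -0.98 and 4 of them passed 2-fold, while Usp13 had a second probe at -0.36.

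Usp44 and Usp49, both known to take ubiquitin off histones, were detected on all arrays in iPS M13 and on none in mix1. Usp44, which also guards the mitotic checkpoint, had signals of 8.51, 8.47 and 8.54 in iPS M13, against 6.64, 7.0 and 6.57 in mix1. It was at least 2.54-fold higher. Usp49 had signals of 8.76, 8.73 and 8.90 in iPS M13, against 7.14, 7.29 and 6.98 in mix1, and was at least 2.91-fold higher. The limma test was run on ratios with the dim mix1 signal included (adjusted p = 2.86e-04 for Usp44 and 2.43e-04 for Usp49), not on the bounds. The iPS M13 signals lay above the mix1 signals on every array for both genes. That order adds no support, since both passed the filter on dim probes through iPS M13 alone. Replicate 2 gave the smallest difference each time. The lowest mix1 signal classed as well above background was 4.72 on replicate 2, against 7.35 and 7.14 on replicates 1 and 3. On replicate 2 the dim mix1 signals of Usp44 and Usp49 therefore entered the bounds as measured, so both bounds rest partly on signals not above background. Usp43 was dim in mix1 too and was not called.

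The other genes of this class called higher were above background in mix1 on at least 2 arrays. Usp39, a splicing factor with an inactive protease fold, had ratios of 1.72, 1.73 and 1.70 (adjusted p = 1.41e-06). Pan2 had 1.42, 1.66 and 1.92, the widest spread after Usp44. Usp31 averaged 1.69 ± 0.11, with mix1 above background on 2 of 3 arrays. Usp1, which removes ubiquitin from Fanconi and replication clamp proteins, had 1.27, 1.34 and 1.31 and a second probe at 1.47. Usp15, known for acting on the TGF-beta pathway, averaged 1.30 ± 0.02.

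Of the 26 genes of this class not called, 18 had positive ratios and 8 negative ones. Usp7, which stabilises the ligase of the tumour suppressor protein p53, was at 0.80 ± 0.05, Usp22, part of the SAGA chromatin complex, at 0.62 ± 0.07, Usp28, known for stabilising Myc, at 0.58 ± 0.11, and the proteasome-bound Usp14 at 0.32 ± 0.01. Usp10 (0.86) and Usp33 (0.64) were not called on their brightest probe but had further probes up to 1.84.

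**Figure D3:**
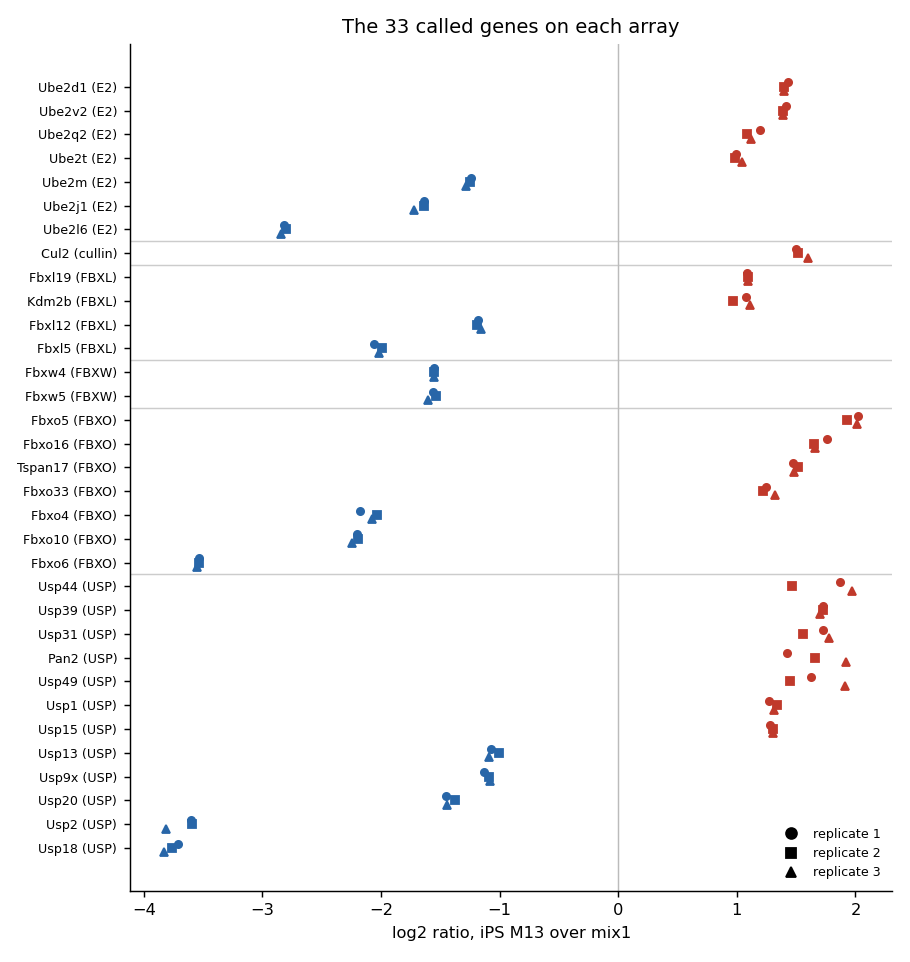
Log2 ratio of iPS M13 over mix1 (x axis) on each of 3 arrays for the 33 called genes (y axis, with class), circles, squares and triangles being replicates 1, 2 and 3. Genes higher in iPS M13 (red, 18) and lower (blue, 15) never cross 0, as the 2-fold minimum nearly ensures, and the arrays spread most for Usp44, Pan2 and Usp49.

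Read along each modifier, the genes moved in unequal ways. For ISG15, the modifier gene Isg15 was lower at -1.29 ± 0.05 (adjusted p = 7.91e-06). Its E1 Uba7 was at least 3.33-fold lower, since iPS M13 was dim on every array, its E2 Ube2l6 and its protease Usp18 were lower as given above, and Herc6, the ISG15 ligase known from mouse, was higher with ratios of 3.49, 3.24 and 3.24 (adjusted p = 8.27e-06). Herc6 was the gene with the highest ratio among the 22 HECT-type ligases tested. Of 14 interferon-induced genes tested, Isg15 among them, 10 were lower and 1, Oasl, was higher, against 25.4% and 18.8% of all genes. Their median was -2.17, against -0.02 for all genes. The log2 of the summed signal of that list was 12.98 to 12.99 in iPS M13, against 16.02 to 16.07 in mix1. Of the 14 genes, 2, Oas1a and Psmb8, were not well above background on any iPS M13 array. They, Tap1, Psmb9 and Ifit2 passed the filter on dim probes through mix1 alone, and Oasl through iPS M13 alone. The direction of these genes therefore adds no support. The log2 of the summed signal of 12 macrophage and marrow markers was 12.15 to 12.24 in iPS M13, against 18.29 to 18.35 in mix1, with 4 of the 12 at background on every iPS M13 array. The part of marrow cells and of interferon in the Ube2l6 and Usp18 values was not tested.

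For NEDD8, the E1 subunit Nae1 was higher (1.35 ± 0.02), with another probe at 0.76 that missed 2-fold. The E2 Ube2m was lower, a call lost with the GC trend removed (-0.74). The modifier Nedd8 was at 0.47, the other E1 subunit Uba3 at 0.73, and Cops5, the enzyme of the COP9 signalosome that takes NEDD8 off cullins, at 0.52. Of the 9 COP9 subunits tested, 0 were called in either direction by limma at 2-fold, against 44.2% of all genes. Their range was -0.48 to 0.80, although 9 of 9 passed the adjusted p alone, as did 96.1% of all genes. For SUMO, the E1 subunit Uba2 was higher with 1.91, 1.92 and 1.88 (adjusted p = 1.44e-06) and another probe at 1.35, while its partner Sae1 (0.63) and the modifier gene Sumo2 (0.45) were not called. For ubiquitin itself, the polyubiquitin gene Ubb was lower at -2.10, with another probe at -1.33. Rps27a, which encodes ubiquitin fused to a ribosomal protein, was called higher with 1.23, 1.26 and 0.79. Uba1, the main ubiquitin E1, was level at 0.06, and the second ubiquitin E1, Uba6, was higher at 1.39 ± 0.16, with mix1 measured on 1 array.

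**Figure D4:**
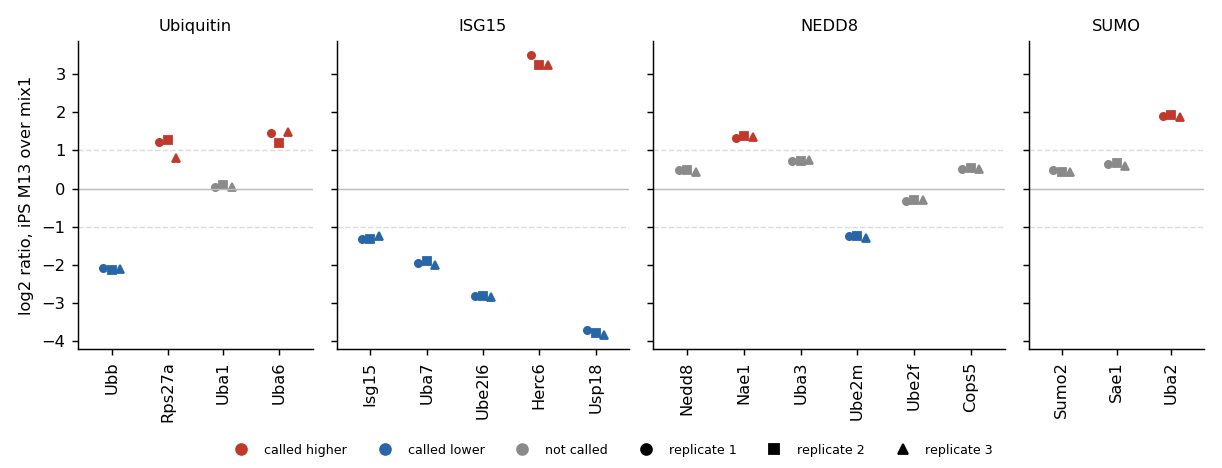
Log2 ratio of iPS M13 over mix1 (y axis) on each of 3 arrays for modifier, E1, E2, ligase and protease genes (x axis) of ubiquitin, ISG15, NEDD8 and SUMO, with dashed lines at 2-fold. In the ISG15 panel 4 genes are below -1 and Herc6 is above 3, and Uba7 and Usp18 are not well above background in iPS M13.

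The direct partners of these genes were also read from lists. Of 17 genes of the Cul1 core and of other cullin ligases, 4 were higher and 3 were lower, against 18.8% and 25.4% of all genes. Their median was 0.46. Skp2, an F-box protein named outside the rule that removes cell cycle inhibitors, was higher at 2.01 ± 0.13. Also higher were the cullin regulator Glmn (1.46), the Cul4 receptor Dtl (1.38) and Rnf7, the RING subunit of Cul5 ligases (1.17). For Dtl, mix1 was above background on only 1 of 3 arrays. Lower were Cand2 (-2.0), a cullin exchange factor, Keap1 (-1.0), the Cul3 receptor of the oxidative stress response, and Vhl (-1.0), the receptor that Cul2 carries, whose other probe was at -0.08. Skp1, the adaptor between Cul1 and F-box proteins, was at 0.46 and the RING subunit Rbx1 at -0.03 (adjusted p = 0.210).

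The anaphase-promoting complex, which Fbxo5 inhibits, had 13 subunits and activators tested, with a median of 0.19. Only Anapc1 was higher (1.39) and only Anapc2 lower (-1.43), against 18.8% and 25.4% of all genes. Of 19 mitotic genes listed for comparison, 13 were higher, against 18.8% of all genes, with a median of 1.51. Called lower by limma were 0, against 25.4% of all genes, although Kif20a (-0.11) and Birc5 (-0.28) passed the adjusted p alone. Fbxo5 (1.99) lay within the range of those genes, -0.28 to 2.22, and so did Ube2c (0.66) and Ube2s (0.03). That range is wide, and no gene of the set lay above it, so lying within it does not tie a gene to this list. The part of dividing cells in the Fbxo5 value was not tested. Of 20 deubiquitinases of other families, 5 were higher and 2 were lower, against 18.8% and 25.4% of all genes. Their median was 0.21. Higher were Uchl1 (2.02), Uchl3 (1.94) and Uchl5 (1.73), proteases of the ubiquitin C-terminal hydrolase family, with Otud4 (2.14) and Otud6b (1.29). Bap1 of the same family was just short of 2-fold and not called, and Otud1 (-3.31) and Josd2 (-2.14) were lower.

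Probes of the same gene did not always give the same call. Of the 43 genes with at least 2 kept probes, 29 had the same call on every probe and 14 did not, while 0 had probes called in opposite directions. The median gap between the highest and the lowest probe was 0.44 on the log2 scale, and 8 genes had probes on both sides of 0, among them Usp25, from -0.49 to 0.50, and Usp47, from -0.22 to 0.50. Probes that shared a call included those of Ube2q2 (1.13 to 2.04), Ube2v2 (1.40 and 1.76), Fbxl12 (-1.63 and -1.18) and Fbxo6.

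A further 24 genes carry a family name today but another name in the files, and so lay outside the rule. Of these, 21 were tested, 2 were higher and 10 were lower, against 18.8% and 25.4% of all genes. The furthest from 0 was Cul7, a scaffold that pairs with Fbxw8, with ratios of -3.16, -3.15 and -3.17 (adjusted p = 6.26e-07). Cul9, its closest relative, was at -1.55 ± 0.01 and Cul4a at -0.96 ± 0.04. Fbxo27 (-2.52) and Fbxo44 (-1.91), relatives of Fbxo6 in the sugar-binding group, were lower too, and Fbxo31 (1.27) and Usp51 (1.18) were higher. Fbxl2 was at -0.22 and was not called. Sorted by present symbols, 25 of 123 tested genes (20.3%) were lower, against 15 of 107 (14.0%) by file names, and the cullin median was 0.00, against 0.48.

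The balance of calls depended on how the arrays were scaled. The median ratio of all genes moved up by 0.31 with the scanner software's processed signals, by 0.60 with median centring and by 0.55 with no normalisation within arrays. Genes of the set called higher then numbered 36, 52 and 49, and those called lower 12, 7 and 7. Over all genes the shares called higher were 31.1%, 36.4% and 34.4%. The share of the set's calls that were higher was 54.5% after loess, 75.0% with processed signals, 88.1% with median centring and 87.5% with no normalisation. Over all genes this share was 42.5%, 56.6%, 67.2% and 65.1% in the same settings. Relative to the median of all genes the set's own median stayed above 0 in all 12 settings, by 0.09 to 0.34, and the USP median by 0.31 to 0.73. Across all settings with the 2-fold minimum in which a gene was tested, 12 of the 18 genes called higher and 7 of the 15 called lower kept their call, and 0 were called the other way. Those 7 were Usp18, Usp2, Fbxo6, Ube2l6, Fbxo10, Fbxo4 and Fbxl5. Among the higher ones, Ube2q2, Ube2t, Fbxo33, Usp1 and Usp15 fell short of 2-fold when a linear trend on probe GC content was removed, and Fbxl19 when its probes were averaged. Removing that trend also ended the lower calls of Ube2m (-0.74), Usp20 (-0.90) and Usp13 (-0.53). Mean probe GC content was 43.1% for the set and 42.8% for all genes.

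**Figure D5:**
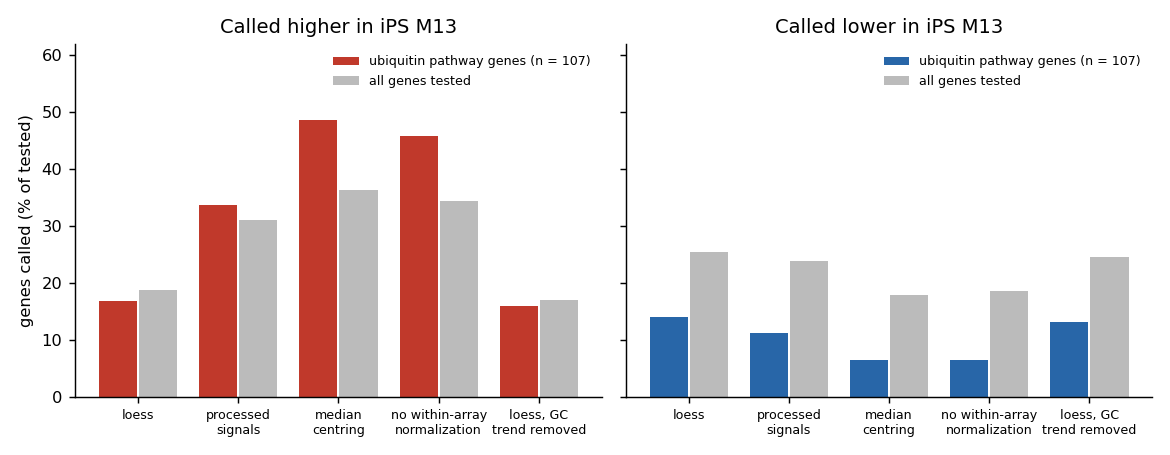
Share of genes (y axis, percent of genes tested) called higher (left) and lower (right) in iPS M13 under 5 ways of scaling the arrays, for the 107 genes of the set (coloured) and all genes tested (grey). After loess the set is at 16.8% higher and 14.0% lower, against 18.8% and 25.4% of all genes, and with median centring the higher share of all genes is 36.4%.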

How the data were processed

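RNA of 3 iPS M13 samples was hybridised against mix1 on 3 arrays of 1 slide, scanned on 1 date per the file headers. Spot intensities were deposited as mean and median pixel brightness per channel, with local background not subtracted, per the file headers. Agilent Feature Extraction 9.5.3.1 made the files, per the submitters' processing notes and the file headers, and its processed intensities were background-corrected and dye-normalized. Its log10 ratios were Cy5 over Cy3, per the file headers. The authors' deposited value table held log2 ratios whose direction was not stated; regressed on each array's log10 ratios, it had slopes of -3.32 and correlations of -0.99987, -0.99996 and -0.99986, so it was read as log2 of Cy3 over Cy5. The columns had medians of -0.0413, -0.0282 and -0.0286, with any centring by the authors unknown. Probe positions are rn3, per the file headers; promoters are RefSeq on GRCr8.

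Mean signals were corrected by normexp (offset 50) with the median local background and normalized by loess within arrays, where control spots had weight 0 (limma 3.58.1, R 4.3.3, data.table version 1.17.8). Spots marked as outliers (205, 263 and 192 on replicates 1 to 3) were dropped and saturated ones kept. Of 41012 probes, 24175 were kept, being well above background on all arrays in 1 of the RNAs, and a gene was read from its brightest one. Signals of single RNAs were scaled between arrays by Aquantile. Where 1 RNA was dim on every array for all probes of a gene, the bound was the bright RNA's mean over that of the dim RNA, raised per array to the lowest signal classed as well above background where its own was below that. The mean log2 ratio was tested against 0 with lmFit and eBayes, adjusted by Benjamini-Hochberg over all 20341 genes. An exact two-sided test by sign flips has a smallest p of 0.25 at this number of arrays and was not used. The fit was tested on simulated data. Names were updated by symbol, synonym or accession in Python 3.11.15 with pandas 2.3.3 and numpy 2.4.6, and figures drawn in matplotlib 3.10.9. Alternatives changed the background correction, scaling, filter, probe rule, GC trend, fold minimum, membership, value table and replicates. The genes, lists, alternatives and naming rule (per class the highest and lowest called genes measured in both RNAs, the largest bounds, and a list of well-known members whatever their result) were chosen with earlier results of these data known. Some genes of these pathways are not reported here.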

Additional observations from a re-analysis of the deposited data

How the results depend on the processing

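No paired analysis was possible because the 3 arrays form 1 group, their numbers name samples of that group only, and mix1 is the same RNA on each array. No alternative reversed a call. Leaving out a replicate gave 17 to 18 genes higher and 15 lower, and Ube2t alone lost its call (0.99 without replicate 3). With the processed signals, and equally with the authors' value table, 36 genes were higher, with 7 FBXO, 2 cullin and 19 USP genes higher and 1 FBXL and 3 USP genes lower. Median centring gave 52 higher and 7 lower: E2 11 and 1, USP 23 and 2, with 12 FBXO and 4 cullin genes higher and 1 FBXL and 0 FBXW genes lower. After loess 6 of 6 FBXW genes passed an unadjusted p under 0.05 in limma, but 96.1% of all genes passed even the adjusted p. No normalisation within arrays gave 49 higher and 7 lower: E2 11 and 1, USP 21 and 2, with 11 FBXO and 4 cullin genes higher and 1 FBXL and 0 FBXW genes lower. With the GC trend taken off 2 E2 genes were higher, and of the set 8 calls were lost, the lower ones of Ube2m, Usp20 and Usp13 among them, and 6 were gained. With probes averaged 1 FBXL and 2 cullin genes were higher. Requiring both RNAs above background left 4 USP genes higher and 3 lower. Without a fold minimum 59 genes were higher and 45 lower: E2 12 and 11, FBXO 16 and 6, cullins 4 and 1, USP 25 and 13, with 8 FBXL and 6 FBXW genes lower. By updated symbols 25 genes were lower, with 6 FBXO, 4 FBXL and 2 cullin genes lower and 1 FBXL gene higher. Lower calls lost 2-fold after median centring for Ube2m (-0.63), Ube2j1 (-0.88), Fbxl12 (-0.34), Usp13 (-0.24) and Usp9x (-0.29), and also for Fbxw4, Fbxw5 and Usp20. Over all genes, 3819 higher and 5170 lower became 6319 and 4841 with processed signals, 7409 and 3613 with median centring, 7005 and 3753 with none, and 9602 and 9941 without a fold minimum. The cause of these shifts was not tested. Signal over background limits the ratios of Usp2, Usp18, Usp44 and Usp49 to bounds.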
